A study of Mus musculus with 12 samples.

Results

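The comparison described here is the effect of ovariectomy, surgical removal of the ovaries, on the liver of mice that received vehicle alone. It uses 6 of the 12 RNA-seq libraries of the study, 3 from intact and 3 from ovariectomized females, both given PBS and collected 6 h later. The mice were wild-type C57BL/6 females, and the labels give neither their age nor the time since surgery. The other 6 libraries come from intact and ovariectomized females of the same strain that received dexamethasone, a synthetic glucocorticoid, at 1 mg/kg for 6 h, again 3 of each. They enter here for the estimate of the spread and to ask where the ovariectomy effect under vehicle differed from that under dexamethasone. Genes were kept where 1 entry per symbol (the highest) had a mean of at least 4 on the deposited log2 scale over all 12 libraries, which left 12965 of 24033 symbols.

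The ovaries are the main source of circulating oestradiol and progesterone. In liver, oestradiol acts mostly through oestrogen receptor alpha, the product of Esr1, and the gonads also shape the pituitary growth hormone rhythm that sets much of the sex difference in hepatic gene expression. Immediate early genes, by contrast, are transcribed within minutes of a signal such as glucagon acting through cyclic AMP, a growth factor or a stress, with no need for new protein.

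The libraries had the profile of hepatocytes. Alb, the serum albumin gene, lay at the 100th percentile of the tested genes in vehicle liver, and Hnf4a, a transcription factor that keeps hepatocyte identity, lay at the 98.2th percentile. Library medians ranged from 8.82 to 8.86 over all 12 libraries. The root mean square difference between replicates was 0.172 to 0.243 log2 units within the vehicle groups and 0.182 to 0.32 within the dexamethasone groups. The deposited table holds no read totals, so depth is unknown. The labels do not say that replicates came from separate animals, and p-values then measure only the spread between these libraries. In bulk tissue, fewer cells of a type and less RNA per cell cannot be told apart.

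Ovariectomy under vehicle was accompanied by many small differences and a few large ones. By limma's moderated test with Benjamini-Hochberg adjustment over all genes tested, at an adjusted p under 0.05, 3618 genes (27.9%) passed. Of these, 1608 (12.4%) rose and 2010 (15.5%) fell. The median absolute log2 difference among them was 0.332, and 43 rose and 23 fell by at least 1 log2 unit. In 3534 of the 3618 genes the 3 ovariectomized libraries did not overlap the 3 intact ones, which held for 5836 (45%) of all genes tested. Without intact vehicle replicate 1, 2215 genes passed (949 higher and 1266 lower), and without intact vehicle replicate 3, 1055 were higher.

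The largest rises and falls named below were taken among genes that passed and whose vehicle groups did not overlap. Non-overlap in them follows from that choice. The largest rise was that of Nr4a1, a quickly induced nuclear receptor without a known natural ligand that is known to induce gluconeogenic genes in liver. Its log2 expression was 6.36, 6.63 and 6.54 in the intact libraries and 11.26, 10.3 and 11.87 in the ovariectomized ones. No ovariectomized library came near the intact range. The difference was 4.64 ± 0.28 (SE, n = 3 per group; limma adjusted p = 1.02e-05), a 24.9-fold higher level. Ppp1r3g, a regulatory subunit that brings protein phosphatase 1 to glycogen, stood at 6.93, 7.42 and 6.65 in intact and at 10.38, 9.62 and 10.64 in ovariectomized liver. It rose by 3.21 ± 0.3 (limma adjusted p = 0.000123). Nr4a2, a relative of Nr4a1 in the same receptor family, was low and tight in intact liver, at 4.37, 4.25 and 4.3, and reached 7.09, 6 and 6.83 after ovariectomy, a rise of 2.33 ± 0.22 (limma adjusted p = 0.000123). In all 3 genes the second ovariectomized library was the lowest of its group. Atf3, a stress-induced bZIP transcription factor, was at 6.01, 6.05 and 6.04 in intact liver and at 7.93, 7.4 and 8.08 in ovariectomized liver, a rise of 1.77 ± 0.31 (limma adjusted p = 0.00233). Btbd19, which encodes a BTB domain protein, rose by 2.23 ± 0.2, and Ankrd37, an ankyrin repeat gene known to respond to hypoxia, by 1.92 ± 0.25 (limma adjusted p = 0.000123 and 0.000546). In these last 2 genes the second ovariectomized library was the highest of its group, at 8.77 for Btbd19 and 8.67 for Ankrd37.

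**Figure D1:**
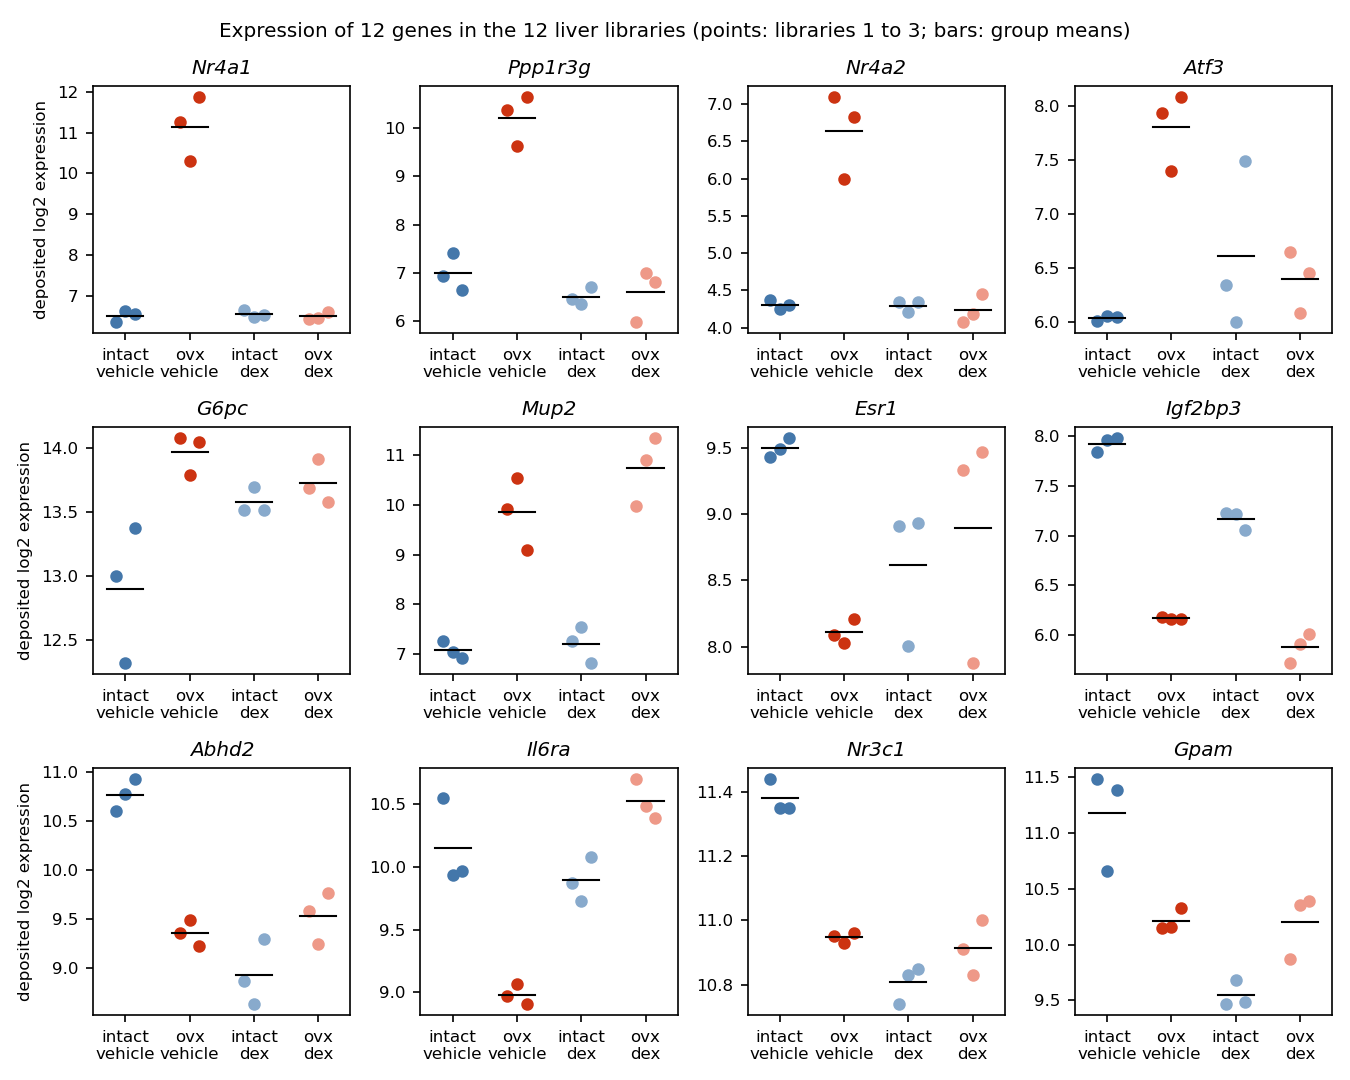
Deposited log2 expression (y axes, each with its own range) of 12 genes in the 12 libraries, by group (x axis: intact or ovariectomized, ovx, with vehicle or dexamethasone, dex). Points are libraries 1 to 3 from left to right and bars are group means. Nr4a1, Ppp1r3g and Nr4a2 are high in the 3 ovariectomized vehicle libraries and in no other group, while Mup2 is high and Igf2bp3 low in both ovariectomized groups.

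The rise extended over the immediate early class. Of 45 listed immediate early genes, 40 passed the filter on low values, 26 of these rose and 0 fell, with a median of 0.74, beside a median of -0.01 and 12.4% risen over all genes tested. Plk3, a stress-responsive kinase, was at 10.36, 10.38 and 10.54 in intact and 12.05, 12.27 and 12.15 in ovariectomized liver, and rose by 1.73 ± 0.34 (limma adjusted p = 0.00381). Fos, a subunit of the AP-1 transcription factor, was at 5.09, 5.35 and 5.14 in intact liver and 6.19, 5.86 and 7.46 after ovariectomy, a rise of 1.31 ± 0.32 (limma adjusted p = 0.011). The ovariectomized libraries were thus much more spread for Fos than for Plk3, and neither gene overlapped its intact range. Among the other members that rose were Jun, Junb, Fosb and Fosl2, which encode further AP-1 subunits, and the phosphatase genes Dusp5, Dusp6 and Dusp8. With 1 vehicle library left out in turn, 20 to 27 members rose. After removal, in every library, of the dependence on length and GC content described further on, 21 rose and the median was 0.71.

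Targets of cyclic AMP and of its transcription factor CREB, a list that shares members with the immediate early genes, gave a like count. Of 25 measured, 15 rose and 0 fell, with a median of 0.66, beside 12.4% risen of all genes tested. Both lists were chosen with earlier results of these data known, so the second count is not a separate result. Sik1, a kinase that feeds back on CREB coactivators, and Crem, a CREB family member, were among those that rose. Nr4a1, Nr4a2, Fos, Fosb and Sik1 were among the members that rose in both lists. Ppargc1a, a coactivator of fasting metabolism, had a difference of -0.12 and Pck1, a gluconeogenic enzyme, 0.17, and neither passed.

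The promoter windows of 4 of these genes are shown because they differ in how many copies they hold of TGACG, the core of the cAMP response element. Each run is the 250 bases before the RefSeq start on GRCm38.p6, a later build than the mm9 build named in the submitters' processing notes, read 5′ to 3′ on the gene's strand. Capitals mark TGACG or its reverse complement CGTCA.
Nr4a1: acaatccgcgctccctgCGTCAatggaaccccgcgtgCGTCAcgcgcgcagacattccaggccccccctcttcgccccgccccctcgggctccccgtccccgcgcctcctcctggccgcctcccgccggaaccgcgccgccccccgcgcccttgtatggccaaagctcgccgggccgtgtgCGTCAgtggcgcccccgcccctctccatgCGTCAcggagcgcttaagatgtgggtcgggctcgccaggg
Nr4a2: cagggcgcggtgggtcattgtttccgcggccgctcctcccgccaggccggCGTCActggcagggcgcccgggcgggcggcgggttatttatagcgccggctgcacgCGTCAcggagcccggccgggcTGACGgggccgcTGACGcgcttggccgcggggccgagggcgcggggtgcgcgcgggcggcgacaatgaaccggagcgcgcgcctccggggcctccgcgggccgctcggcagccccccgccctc
Fos: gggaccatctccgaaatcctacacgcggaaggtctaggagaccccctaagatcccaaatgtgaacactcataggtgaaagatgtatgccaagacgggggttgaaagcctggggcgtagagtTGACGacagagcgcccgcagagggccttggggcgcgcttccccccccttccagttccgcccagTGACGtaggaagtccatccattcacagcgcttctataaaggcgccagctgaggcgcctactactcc
Ppp1r3g: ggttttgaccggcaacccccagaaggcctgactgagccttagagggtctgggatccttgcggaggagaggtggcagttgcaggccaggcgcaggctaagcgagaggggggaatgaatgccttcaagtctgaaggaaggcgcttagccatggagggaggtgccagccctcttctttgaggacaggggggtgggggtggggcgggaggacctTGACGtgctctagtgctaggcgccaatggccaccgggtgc
The Nr4a1 window, chr15:101266596-101266845 on the plus strand, holds 4 copies, whose first bases lie 233, 213, 69 and 40 bases before the start. The Nr4a2 window, chr2:57124004-57124253 on the minus strand, also holds 4, at 200, 144, 123 and 111 bases. Fos, chr12:85473640-85473889 on the plus strand, holds 2, at 129 and 66 bases, and Ppp1r3g, chr13:35967656-35967905 on the plus strand, holds 1, at 40 bases. TGACG, sought on both strands, was found for 17 of the 22 immediate early genes that rose and have a window (77.3%). Among all genes with a window it was found for 33.2% of the 1245 that rose and 30.2% of the 1522 that fell. The share was 30.2% of the 9818 genes tested that have a window. A gene counted where any of its windows held the letters. The full palindrome TGACGTCA, which contains TGACG on both strands, was found for 4 of the 22 (18.2%) and for 2.93% of the 9818. The palindromic oestrogen response element was found for 0 of the 9818. No share was taken for immediate early genes that did not rise, so the 77.3% belongs to a chosen list and cannot be tied to the rise. A match is a description of these letters and says nothing about binding in these livers.

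The other large rises were those of the major urinary proteins, lipocalins that carry pheromones and are made mostly by male liver. Mup2 was at 7.27, 7.05 and 6.93 in intact and 9.92, 10.53 and 9.09 in ovariectomized liver, a rise of 2.76 ± 0.37 (limma adjusted p = 0.000612). Mup13, Mup15, Mup19, Mup12 and Mup8 rose by 2.57, 2.52, 2.26, 2.11 and 2.1, without overlap, as the choice of genes required. These genes are near-identical copies: 78.2% (Mup2) to 100% (Mup15 and Mup19) of their 50-base words occur in other genes' transcripts, so which copy the reads came from is uncertain. Of 17 Mup genes measured, 7 rose and 0 fell under vehicle, with a median of 0.77, and 8 rose under dexamethasone. Of all genes tested 12.4% rose under vehicle and 7.74% under dexamethasone. For Mup2 the rise under dexamethasone was 3.52, and the difference between treatments, -0.76 ± 0.52, did not pass (limma adjusted p = 0.299).

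The largest fall was that of Igf2bp3, which encodes an RNA-binding protein that is high in fetal tissues. It stood at 7.84, 7.96 and 7.98 in intact liver and at 6.18, 6.16 and 6.16 in ovariectomized liver. The groups were tight and far apart, with a difference of -1.76 ± 0.088 (limma adjusted p = 2.39e-06). Abhd2, a serine hydrolase gene, was at 10.61, 10.78 and 10.93 against 9.36, 9.49 and 9.23, and fell by 1.41 ± 0.16. Mia2, whose product exports large cargo from the endoplasmic reticulum, went from 10.54, 9.96 and 10.4 to 8.98, 9.17 and 8.84, and fell by 1.3 ± 0.13 (limma adjusted p = 0.000306 for Abhd2 and 0.000155 for Mia2). Il6ra, the ligand-binding chain of the interleukin 6 receptor, was at 10.55, 9.94 and 9.97 in intact and 8.97, 9.07 and 8.91 in ovariectomized liver, and fell by 1.17 ± 0.15 (limma adjusted p = 0.000481). That none of these 4 genes overlapped between groups follows from how they were chosen. Slfn9, a schlafen family gene, fell by 1.23, Rnf125, a ubiquitin ligase of antiviral signalling, fell by 1.19, Urad, an enzyme of uric acid breakdown, fell by 1.19, and Rassf8, which encodes a Ras-association domain protein, fell by 1.17. Urad was at 8.67, 8.63 and 9.21 after ovariectomy, against 10 to 10.06 in intact liver. Prtn3, a protease of myeloid granules, fell by 1.19 ± 0.32 (limma adjusted p = 0.0176), but intact library 2, at 5.86, stood well above intact libraries 1 and 3, at 4.4 and 4.44, and without ovariectomized vehicle replicate 2 the adjusted p was 0.0559.

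Esr1, oestrogen receptor alpha, fell. Its level was 9.43, 9.49 and 9.57 in intact and 8.09, 8.03 and 8.21 in ovariectomized vehicle liver, a difference of -1.39 ± 0.35 (limma adjusted p = 0.0132). Within each vehicle group the 3 libraries were close, and the SE reflects the spread shared with the dexamethasone libraries, where Esr1 ranged from 7.88 to 9.47. Nrip1, a corepressor of oestrogen receptor and other nuclear receptors, fell by 0.83 ± 0.11 (limma adjusted p = 0.000558), and Nr3c1, the glucocorticoid receptor, by 0.43 ± 0.054 (limma adjusted p = 0.000464). Nr3c1 was at 11.44, 11.35 and 11.35 in intact and 10.95, 10.93 and 10.96 in ovariectomized liver, so a modest change stood far outside the replicate spread. These were the 3 that fell of 22 measured oestrogen receptor and response genes, 0 of which rose, a share below the 15.5% that fell of all genes tested. Without intact vehicle replicate 2, 5 fell.

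Apart from the copies of Mup described above, most of which the lists of sex-biased genes do not hold, few listed sex-biased genes passed. Of 32 measured female-biased liver genes 1 rose and 3 fell, and of 29 male-biased genes 2 rose and 2 fell, all 4 shares below the 12.4% and 15.5% of all genes tested. Ntrk2, a neurotrophin receptor, rose by 1.04 ± 0.26, and Abcd2, a peroxisomal fatty acid transporter, fell by 0.5 ± 0.067 (limma adjusted p = 0.0122 and 0.00062). C8b, a complement gene of the male-biased list, fell by 0.52 ± 0.12 (limma adjusted p = 0.00788). The count of female-biased genes that fell was 1 without intact vehicle replicate 1 and 1 without ovariectomized vehicle replicate 1. Of the male-biased genes 1 rose and 1 fell without intact vehicle replicate 1, 1 fell without any single ovariectomized vehicle library, and 0 rose and 1 fell with the length and GC trend removed.

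Of 27 measured glucocorticoid receptor targets, 4 rose and 3 fell, with a median of -0.02, beside 12.4% and 15.5% of all genes tested. Fkbp5, a cochaperone of the receptor, was at 11.37, 11.57 and 11.03 in intact and 10.96, 10.88 and 10.37 in ovariectomized vehicle liver, a difference of -0.59 ± 0.22 that did not pass (limma adjusted p = 0.0635). Tsc22d3, which encodes the leucine zipper protein GILZ, overlapped between groups, with a difference of -0.25 ± 0.15 (limma adjusted p = 0.233). Per1, a clock gene that glucocorticoids and cyclic AMP both induce, was at 10.62, 10.2 and 10.06 against 10.81, 10.79 and 10.95, a difference of 0.56 ± 0.16 (limma adjusted p = 0.0241). The Per1 call was lost without intact vehicle replicate 2 or 3 (adjusted p = 0.0629 and 0.0955), without ovariectomized vehicle replicate 1 or 3 (0.0548 and 0.0765), and after the length and GC trend was removed (0.0544). The number of targets that rose was 2 without intact vehicle replicate 3, 2 without ovariectomized vehicle replicate 1 and 1 without ovariectomized vehicle replicate 3. The number that fell was 1 without intact vehicle replicate 1 and 0 without ovariectomized vehicle replicate 1 or 2.

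In glucose metabolism a few genes passed, beside 12.4% risen and 15.5% fallen of all genes tested. G6pc, the catalytic subunit of glucose-6-phosphatase and the last step of glucose output, was at 13, 12.32 and 13.38 in intact and 14.08, 13.79 and 14.05 in ovariectomized liver. It rose by 1.07 ± 0.2 (limma adjusted p = 0.00335), with the intact libraries widely spread and all below the ovariectomized ones. Of 23 measured gluconeogenesis genes it was the 1 that rose. Pcx, pyruvate carboxylase, and Foxo3, a forkhead factor restrained by insulin, were the 2 that fell, by 0.32 ± 0.063 and 0.57 ± 0.12 (limma adjusted p = 0.00404 and 0.00516). Without intact vehicle replicate 2, 2 rose and 5 fell, and without ovariectomized vehicle replicate 3, 4 fell. Of 24 insulin signalling and glycogen genes 5 rose and 4 fell. Irs1, an insulin receptor substrate, rose by 0.69 ± 0.12 (limma adjusted p = 0.00199). The 4 falls in that list became 1 without intact vehicle replicate 1 or ovariectomized vehicle replicate 1, and 2 without intact vehicle replicate 3 or ovariectomized vehicle replicate 3.

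In lipid metabolism, too, a few genes passed, beside the same 12.4% risen and 15.5% fallen of all genes tested. Gpam, the first enzyme of triglyceride synthesis, was at 11.48, 10.66 and 11.38 in intact and 10.15, 10.16 and 10.33 in ovariectomized liver, and fell by 0.96 ± 0.19 (limma adjusted p = 0.00403). Elovl5, an elongase of polyunsaturated fatty acids, rose by 0.66 ± 0.11 (limma adjusted p = 0.00216). Of 29 fatty acid and triglyceride synthesis genes 4 rose and 2 fell, with 2 rising without ovariectomized vehicle replicate 2 and 1 falling without intact vehicle replicate 3 or ovariectomized vehicle replicate 1. Of 25 cholesterol synthesis genes 2 fell and 0 rose, below the 15.5% that fell of all genes tested. The 2 became 6 without intact vehicle replicate 2, and 1 without intact vehicle replicate 1 or 3 or ovariectomized vehicle replicate 1 or 2, and the median ran from -0.3 to 0.05. Cpt1a, the gate of mitochondrial fatty acid import, was at 14.14, 14.12 and 14.11 against 13.84, 13.81 and 13.83, and fell by 0.3 ± 0.07 (limma adjusted p = 0.00971). The replicates of Cpt1a lay far closer together than the groups. Of 32 genes of fatty acid oxidation and PPARalpha response 5 fell and 0 rose under vehicle, beside 15.5% and 12.4% of all genes tested. Under dexamethasone 12 rose and 0 fell, beside 7.74% and 5.08% of all genes tested. The dexamethasone groups also differed in a trend with expression level, given further on, whose part in the 12 was not tested. The 5 became 2 without intact vehicle replicate 1 or 3 or ovariectomized vehicle replicate 1. Without ovariectomized vehicle replicate 3, 1 fell and 4 rose, with a median of 0.07. Nr5a2, a nuclear receptor that drives bile acid genes, and Akr1d1, a reductase of bile acid synthesis, each fell by 0.59 (SE 0.09 and 0.11, limma adjusted p = 0.00114 and 0.00283). Of 26 bile acid genes 7 fell and 1 rose, beside 15.5% and 12.4% of all genes tested. The 7 became 4 without intact vehicle replicate 1 or 3 or ovariectomized vehicle replicate 2, and 3 without ovariectomized vehicle replicate 1.

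Of 36 measured xenobiotic genes 6 rose and 7 fell, beside 12.4% and 15.5% of all genes tested, and with the length and GC trend removed 4 rose and 5 fell. Gstm1, a glutathione transferase, was at 14.51, 14.53 and 14.6 in intact and 15.25, 15.4 and 15.5 in ovariectomized liver, and rose by 0.84 ± 0.085 (limma adjusted p = 0.000168). Gsta1 and Gsta2, also glutathione transferases, rose by 1.4 ± 0.26 and 0.98 ± 0.24 (limma adjusted p = 0.00274 and 0.0112), although 90.5% and 49.8% of their 50-base words are shared with other genes. Ugt1a1, the bilirubin glucuronosyltransferase, was at 13.18, 13.16 and 13.15 against 12.37, 12.52 and 12.29, and fell by 0.77 ± 0.087 (limma adjusted p = 0.000275), with 58.2% of its words shared. Gsta4, another glutathione transferase, was also among those that rose. Cps1, the first enzyme of the urea cycle, fell by 0.62 ± 0.12, and Dpyd, which starts pyrimidine breakdown, by 0.46 ± 0.076 (limma adjusted p = 0.00383 and 0.00172). They were among 6 of 37 genes of amino acid and related catabolism that fell, with 0 that rose, close to the 15.5% that fell of all genes tested. Without ovariectomized vehicle replicate 3, 12 fell.

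Secreted defence proteins of the hepatocyte were lower. Of 31 acute phase genes 13 fell and 2 rose, with a median of -0.39, beside 15.5% and 12.4% of all genes tested. Of 35 complement and coagulation genes, a list that shares C3 and the fibrinogen genes with the first, 18 fell and 1 rose, with a median of -0.29. Masp1, a protease that starts the lectin pathway of complement, was at 11.08, 10.6 and 10.84 in intact and 9.82, 9.77 and 9.71 in ovariectomized liver, and fell by 1.07 ± 0.094 (limma adjusted p = 0.000121). C3, the central complement protein, was at 18.39, 18.49 and 18.39 against 17.8, 18.01 and 17.79, and fell by 0.56 ± 0.11. No library of either gene crossed into the other group's range. Fga, fibrinogen alpha, and F5, coagulation factor V, fell by 0.57 ± 0.11 and 0.56 ± 0.07 (limma adjusted p = 0.00316 and 0.00046, and 0.00492 for C3). Socs3, a feedback inhibitor of interleukin 6 signalling, went the other way, from 7.59, 7.96 and 7.68 to 8.35, 8.57 and 8.39, a rise of 0.7 ± 0.11 (limma adjusted p = 0.00117). With 1 vehicle library left out, 9 to 15 acute phase and 15 to 18 complement and coagulation genes fell, and 1 acute phase gene rose without intact vehicle replicate 1 or 3 or ovariectomized vehicle replicate 2 or 3. With the length and GC trend removed, 13 and 21 fell.

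Interferon response genes were lower, as a large share of the list. Of 41 measured, 23 fell and 1 rose, with a median of -0.41, beside 15.5% and 12.4% of all genes tested. Gbp7, a guanylate-binding GTPase, was at 9.66, 9.96 and 9.55 in intact and 8.91, 8.76 and 9.01 in ovariectomized liver, and fell by 0.83 ± 0.11 (limma adjusted p = 0.000497). Ifit2, an antiviral RNA-binding protein, fell by 0.75 ± 0.11 and Gbp6 by 0.72 ± 0.11 (limma adjusted p = 0.000956 and 0.00137), with 70.7% of the Gbp6 words shared with other genes. The count was 17 to 23 with 1 vehicle library left out and 23 with the length and GC trend removed. Under dexamethasone 22 of the 41 also fell, with a median of -0.35, beside 5.08% of all genes tested. That comparison uses other libraries.

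Macrophage markers fell alongside. Emr1, a defining surface receptor of mouse macrophages, was at 9.11, 8.91 and 8.89 in intact and 8.35, 7.93 and 7.98 in ovariectomized liver, and fell by 0.88 ± 0.12 (limma adjusted p = 0.000659). Mpeg1, the pore-forming perforin-2 of macrophages, fell by 0.6 ± 0.09 (limma adjusted p = 0.00108). Of 18 measured Kupffer cell and macrophage markers 9 fell and 0 rose, with a median of -0.27, beside 15.5% and 12.4% of all genes tested. The count was 5 without ovariectomized vehicle replicate 2 or 3, and 13 after the length and GC trend was removed. The summed level of the list was 14.39 to 14.47 in intact and 13.95 to 14.2 in ovariectomized liver. Its part in the lower interferon response genes was not tested. Il1b and Il1a, the genes of the interleukin 1 cytokines, nonetheless rose, by 1.23 ± 0.19 and 0.69 ± 0.1 (limma adjusted p = 0.00115 and 0.00108), 2 of 5 that rose among 18 cytokine and feedback genes, with 1 that fell and 0 without ovariectomized vehicle replicate 1 or 2. Il1b was low throughout, at 4.95, 5.48 and 5.24 against 6.54, 6.04 and 6.78.

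Fewer markers of other cells passed, beside the 12.4% that rose and 15.5% that fell of all genes tested. Spp1, or osteopontin, and Epcam, an epithelial adhesion molecule, rose by 0.49 ± 0.088 and 0.39 ± 0.077 (limma adjusted p = 0.00242 and 0.00404), the 2 of 10 measured cholangiocyte markers that passed. The summed cholangiocyte level was 11.38 to 11.54 in intact and 11.72 to 11.92 in ovariectomized liver. It did not overlap, which held for 45% of all genes tested. Spp1 alone was at 10.79, 10.84 and 10.86 against 11.35, 11.17 and 11.44. It made up a large part of that sum, so the sum is not separate from its rise. Egfl7, an endothelial secreted factor, rose by 0.56 ± 0.083, 1 of 2 among 18 sinusoidal endothelial markers, and Des, or desmin, by 0.43 ± 0.1, 1 of 2 among 19 stellate markers (limma adjusted p = 0.00107 and 0.0107). The summed levels of both lists overlapped between groups, at 14.06 to 14.21 against 14.08 to 14.34 and 13.97 to 14.31 against 13.89 to 14.35. Bank1, a B cell scaffold, fell by 0.56 ± 0.11 (limma adjusted p = 0.00342), 1 of 2 of 9 B cell markers. The 2 endothelial rises became 1 without intact vehicle replicate 1 or 2 or ovariectomized vehicle replicate 1 or 3. The 2 stellate rises became 1 without intact vehicle replicate 2 or ovariectomized vehicle replicate 1 or 3. The 2 B cell falls became 1 without any single vehicle library other than ovariectomized vehicle replicate 1. Of 12 T and NK cell markers 0 passed, and of 6 mesothelial markers 0 passed, although 2 rose without ovariectomized vehicle replicate 2 and 1 without intact vehicle replicate 2. Neutrophil, erythroid, exocrine pancreas and adipose lists had 3 measured members each. Among neutrophil markers 1 rose, S100a9, a calcium-binding protein of myeloid cells (0.65 ± 0.22, limma adjusted p = 0.0485), and 0 rose without intact vehicle replicate 1 or 3 or ovariectomized vehicle replicate 2 or 3. Among pancreas markers 1 fell, Pnliprp1, a lipase relative (-0.96 ± 0.19, limma adjusted p = 0.00366). The erythroid and adipose lists had 0 that passed, and the globin genes Hba-a1, Hba-a2, Hbb-b1 and Hbb-b2 were listed at 0 in all libraries.

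Of 26 measured genes of endoplasmic reticulum stress and protein folding 3 rose and 6 fell, beside 12.4% and 15.5% of all genes tested. Ppp1r15a, the phosphatase subunit that reverses eIF2 alpha phosphorylation, was at 8.28, 8.23 and 8.41 in intact and 9.28, 9.17 and 9.47 in ovariectomized liver, and rose by 1 ± 0.094 (limma adjusted p = 0.000126). Atf4, the main effector of the integrated stress response, was at 11.53, 11.46 and 11.49 against 12.1, 12.12 and 12.13, and rose by 0.62 ± 0.058, and Ddit3, its target CHOP, by 0.56 ± 0.098 (limma adjusted p = 0.000123 and 0.00227). The replicates of Atf4 were close in each group and the groups far apart. Ern1, the IRE1 alpha sensor of the endoplasmic reticulum, fell by 0.73 ± 0.15 (limma adjusted p = 0.00492). Hspb1, a small heat shock protein, rose by 1.14 ± 0.25 and Dnajb4, a cochaperone, by 0.34 ± 0.063 (limma adjusted p = 0.00618 and 0.00277), among 4 of 18 heat shock genes that rose, with 1 that fell. The number that rose was 2 without intact vehicle replicate 1 or 2, or ovariectomized vehicle replicate 2. The number that fell was 3 without intact vehicle replicate 2, and 0 without any other single vehicle library.

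Cell cycle genes were lower in direction more than in call. Of 32 measured 7 fell and 0 rose, beside 15.5% and 12.4% of all genes tested, with a median of -0.39 and 31 below 0. Mcm6, a subunit of the replicative helicase, was at 8.59, 8.42 and 8.92 in intact and 8.07, 7.65 and 8.02 in ovariectomized liver, and fell by 0.73 ± 0.17 (limma adjusted p = 0.00836). The count was 12 without intact vehicle replicate 2, and 4 without intact vehicle replicate 3 or ovariectomized vehicle replicate 2. Among 13 histone genes 3 rose and 0 fell, of which H2afj, a histone H2A variant, rose by 0.34 ± 0.074 and Hist1h2be by 0.51 ± 0.12 (limma adjusted p = 0.00649 and 0.0106). In the remaining lists, to be set beside the same shares, 1 of 18 growth hormone and IGF genes rose and 1 fell. Without ovariectomized vehicle replicate 2, 2 of them rose. Of 16 pericentral genes 0 rose and 1 fell, and 0 fell without intact vehicle replicate 1 or ovariectomized vehicle replicate 2. Of 16 periportal genes 0 rose and 3 fell, and 1 fell without intact vehicle replicate 1 or 3 or ovariectomized vehicle replicate 1, or with the length and GC trend removed. Of 20 hepatocyte identity genes 3 rose and 3 fell, while 1 rose without intact vehicle replicate 1 or ovariectomized vehicle replicate 2 or 3, and 0 with that trend removed. Of 19 clock genes 4 rose and 2 fell. The 4 became 2 without intact vehicle replicate 1 or 2, 1 without intact vehicle replicate 3 or ovariectomized vehicle replicate 1, and 0 without ovariectomized vehicle replicate 3. The 2 became 0 without intact vehicle replicate 1 or 3 or ovariectomized vehicle replicate 1 or 3.

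The direction of the vehicle difference followed transcript length. Across 12898 genes with an annotated length, Spearman's rho between the log2 difference and the length of the longest GENCODE M21 transcript was -0.37, a description across genes that share the same 6 libraries. The shortest of 10 bins of equal gene number, 66 to 1390 bases, had a median difference of 0.19, with 36.4% risen and 2.71% fallen. The longest bin, from 6703 bases up, had a median of -0.14, with 2.33% risen and 29.6% fallen. The medians of the 8 bins between fell in order. The median length was 2100.5 bases for genes that rose, 4542 for genes that fell and 3341 for all. Among protein-coding genes under 2000 bases 692 rose (27.4%) and 95 fell (3.75%), while of those of 2000 bases or more 813 rose (8.18%) and 1896 fell (19.1%). Under dexamethasone rho was 0.08 and the bin medians ran from -0.01 to 0.06.

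**Figure D2:**
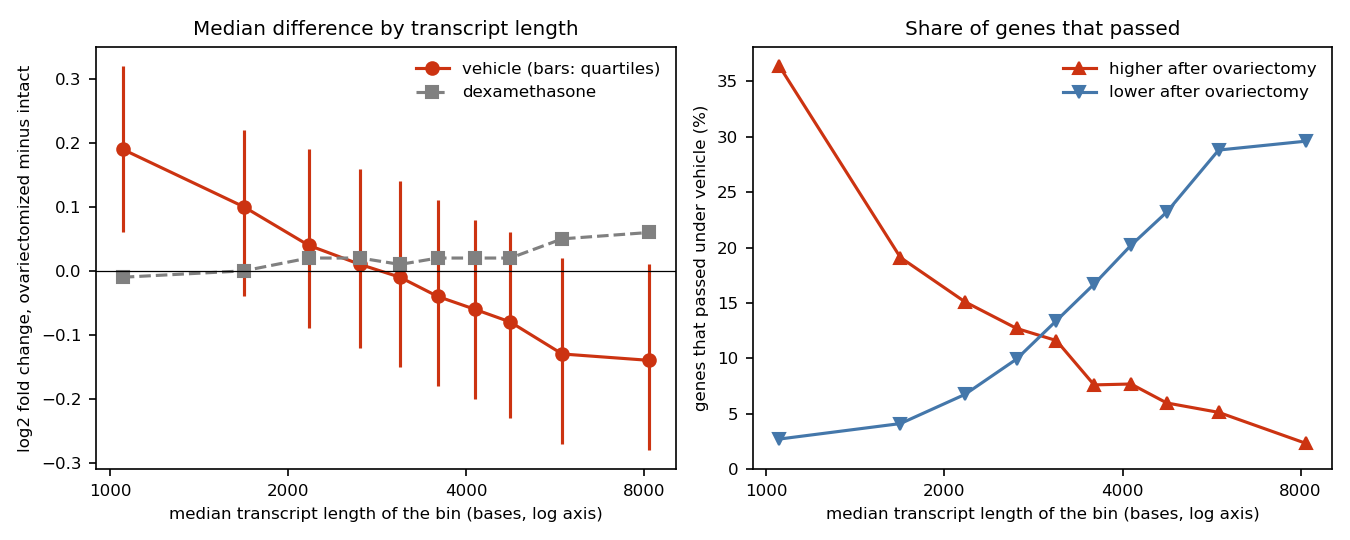
Left, median log2 difference between ovariectomized and intact liver (y axis) in 10 bins of equal gene number along transcript length (x axis, log scale), under vehicle (circles, bars from the lower to the upper quartile) and dexamethasone (squares). Right, percent of the genes of each bin that rose or fell under vehicle. The vehicle medians go from 0.19 in the shortest bin to -0.14 in the longest, and the share that rose from 36.4% to 2.33%.

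GC content moved with length. Spearman's rho between the vehicle difference and GC content was 0.33, and between length and GC content -0.24, so that longer transcripts were also poorer in G and C. With GC content and mean level held constant the partial rho with length was -0.32. It was -0.31 with the longest coding length, and -0.43 among genes with a mean of at least 9. With the median length over a gene's transcripts it was -0.22, and within protein-coding genes under 2000 bases, or of 2000 bases or more, -0.26 in both. Leaving out 1 vehicle library gave -0.41 to -0.33.

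Library by library, the intact vehicle group stood apart. The slope of each library's deviation from the mean of all 12, per doubling of length, was 0.101, 0.0319 and 0.086 log2 units in the intact vehicle libraries. It was -0.021, -0.0264 and -0.0396 in the ovariectomized vehicle libraries. All 6 dexamethasone libraries lay between -0.0404 and -0.00177. The 3 intact vehicle libraries were thus the 3 above 0 of 12, and intact vehicle library 2 was the nearest to the rest. The vehicle groups had means of 0.073 ± 0.036 and -0.029 ± 0.0096 (SD, n = 3) and did not overlap, with a difference of -0.102 (two-sided exact permutation test, p = 0.1, the smallest that 3 against 3 can give). Under dexamethasone the difference was 0.012 (exact permutation test, p = 0.5). The correlation with GC content separated the vehicle libraries too, at -0.35, -0.08 and -0.16 in intact and 0.16, 0.19 and 0.15 in ovariectomized liver. The labels give no RNA quality or library date, and their part in the length trend was not tested.

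**Figure D3:**
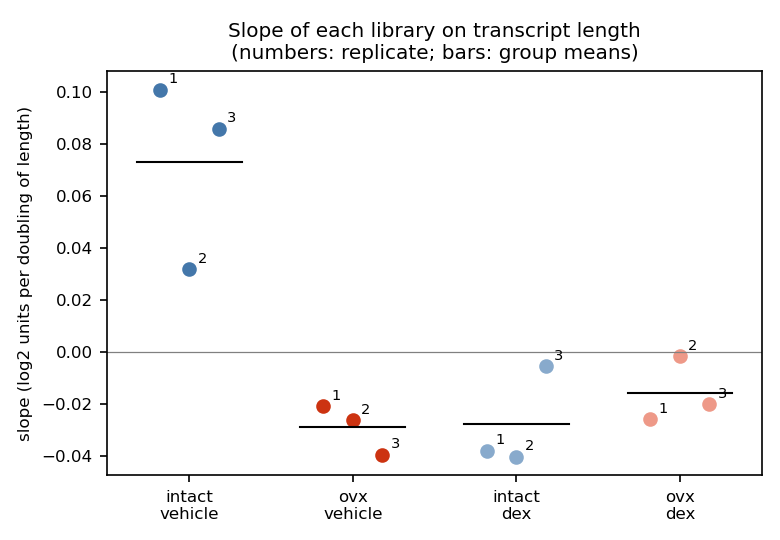
Slope of each library on transcript length (y axis, log2 units per doubling of length, relative to the mean of all 12 libraries) by group (x axis). Points are libraries, numbered by replicate, and bars are group means. The 3 intact vehicle libraries lie at 0.0319 to 0.101, above all others.

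Which genes passed depended on the trend. After each library's dependence on length and GC content was removed by splines, 2519 genes passed, 1203 higher and 1316 lower, and 1987 of the 3599 that had passed and have a length (55.2%) were among them. In the shortest bin 10.9% then rose and 8.29% fell, and in the longest 8.68% and 12.6%. Removal also takes out any difference in expression that goes with length.

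Lists of short transcripts were the most affected. Oxidative phosphorylation subunits, the nuclear-encoded parts of the mitochondrial respiratory chain, had a median length of 1186 bases. Of 68 measured 46 rose and 2 fell, with a median of 0.26. In the shortest bin of all genes 36.4% rose and 2.71% fell, with a median of 0.19. By complex, 24 of 31 complex I genes rose, 1 of 4 in complex II, 5 of 8 in complex III, 7 of 10 in complex IV and 9 of 15 of ATP synthase. Ndufa3, a complex I subunit, was at 10.52, 10.69 and 10.65 in intact and 11.15, 11.25 and 11.38 in ovariectomized liver, and rose by 0.64 ± 0.066 (limma adjusted p = 0.000173). Cox6b1 of complex IV, Ndufa7 of complex I and Uqcrq of complex III rose by 0.43 ± 0.051, 0.42 ± 0.068 and 0.41 ± 0.06 (limma adjusted p = 0.000337, 0.00154 and 0.000922). These 4 genes passed also with the trend removed, where 28 of the 68 rose and 7 fell, with a median of 0.08. With the length trend alone removed 22 rose.

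Cytosolic ribosomal proteins, with a median length of 1109 bases, had no stable direction. Of 65 measured 13 rose and 8 fell, with a median of 0.1, beside 12.4% and 15.5% of all genes tested. With the length and GC trend removed 6 rose and 17 fell, with a median of -0.06. The number that rose was 7 without intact vehicle replicate 1 or 3 or ovariectomized vehicle replicate 1 or 3, 8 without ovariectomized vehicle replicate 2, and 20 without intact vehicle replicate 2. A few small-subunit proteins fell far beyond the rest. Rps10 was at 8.25, 8.7 and 8.27 in intact and 7.34, 7.45 and 7.19 in ovariectomized liver, and fell by 1.08 ± 0.12. Rps7 fell by 1.28 ± 0.13 and Rps23 by 1.02 ± 0.08 (limma adjusted p = 0.000139 and 7.45e-05, and 0.000229 for Rps10). They fell under dexamethasone as well, by 1.49 for Rps10, 1.04 for Rps7 and 1.18 for Rps23. Between 18.7% and 35.3% of their words occur in other genes' transcripts, so the split of reads among copies is uncertain.

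Long genes gave the opposite picture. Of 33 measured genes of nuclear and cytoskeletal function, with a median length of 14342 bases, 9 fell and 0 rose, with a median of -0.11. In the longest bin of all genes 29.6% fell and 2.33% rose, with a median of -0.14, so the list was close to long genes at large. Lrp1, a large endocytic receptor, was at 14.75, 14.78 and 14.76 in intact and 14.12, 14.22 and 14.24 in ovariectomized liver, and fell by 0.57 ± 0.065 (limma adjusted p = 0.000305). Lyst, a lysosomal trafficking protein, Vps13c, a lipid transfer protein, and Dst, or dystonin, a cytoskeletal linker, fell by 0.55, 0.5 and 0.48. With the trend removed 7 fell and 2 rose, and the median was 0. The median of Kupffer cell markers, by contrast, was -0.38 and that of interferon response genes -0.38 after removal.

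**Figure D4:**
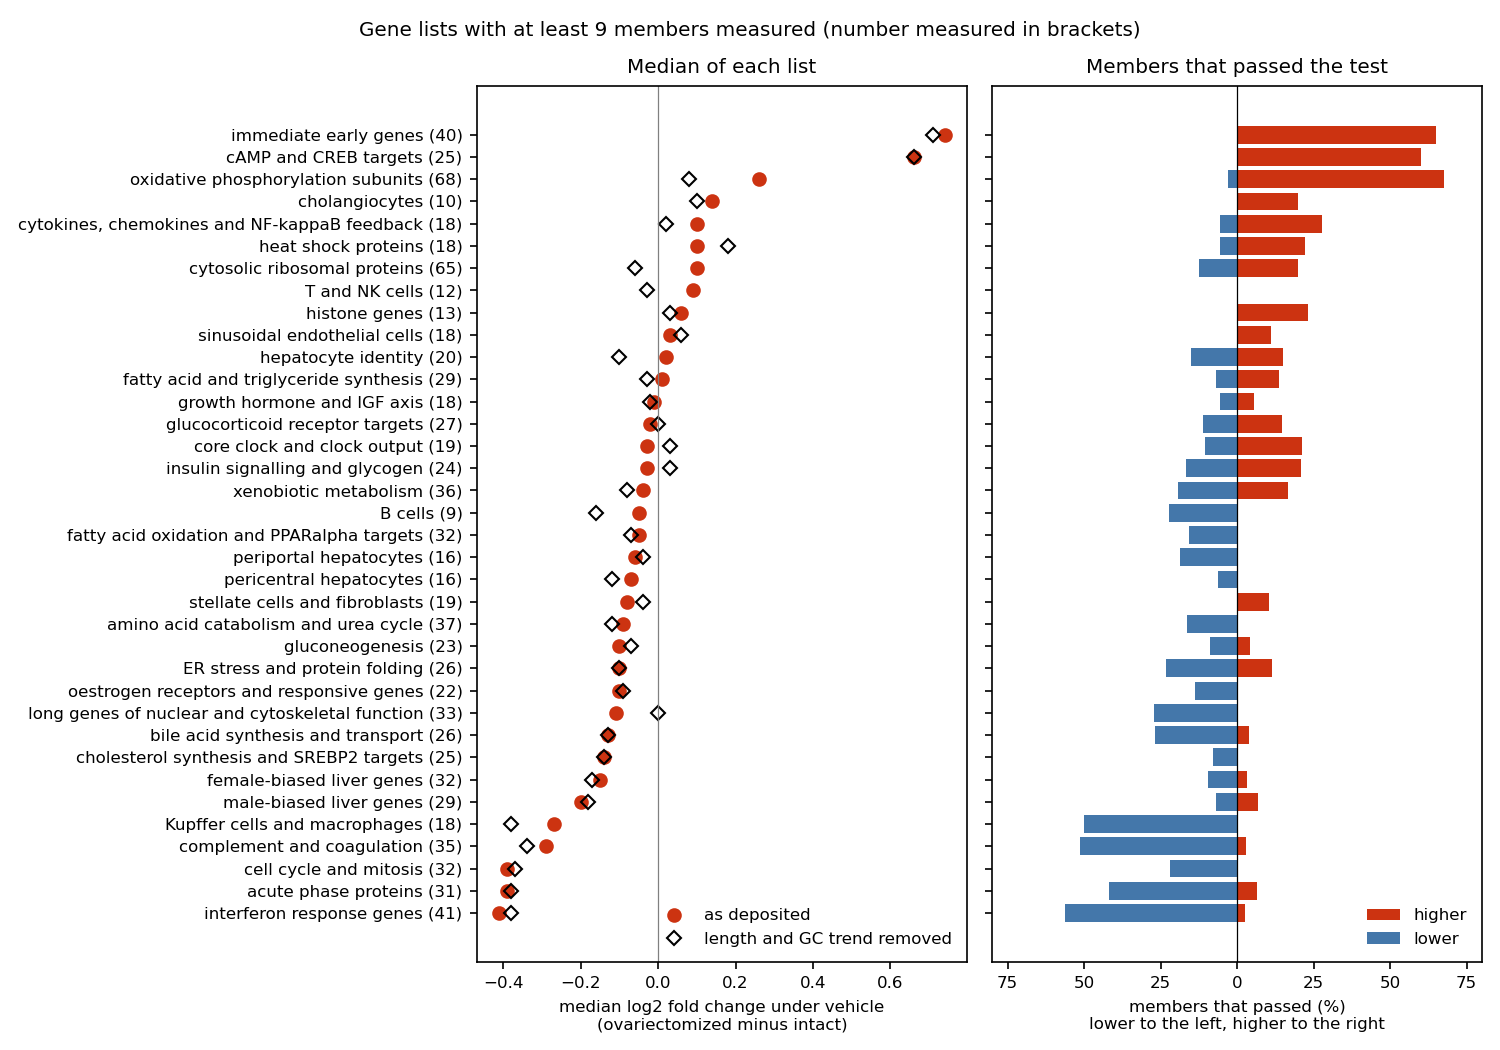
Left, median log2 difference under vehicle (x axis) of each gene list with at least 9 measured members (y axis, number measured in brackets), as deposited (circles) and with the length and GC trend removed (diamonds). Right, percent of members that rose (to the right) or fell (to the left). Immediate early genes (median 0.74 and 0.71) and interferon response genes (-0.41 and -0.38) lie at the ends, and oxidative phosphorylation subunits go from 0.26 to 0.08.

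The effect of ovariectomy was then set beside that under dexamethasone, which uses 6 other libraries. Under dexamethasone 1004 genes rose (7.74%) and 658 fell (5.08%). That total rests on single libraries: it was 207 without ovariectomized dexamethasone replicate 3, 312 without intact dexamethasone replicate 1, 922 without ovariectomized dexamethasone replicate 1 and 993 without ovariectomized dexamethasone replicate 2, against 1662. The total under dexamethasone was also 799 with the level trend removed. Spearman's rho of each library's deviation with mean level was -0.23, -0.14 and -0.23 in intact dexamethasone libraries. It was 0.17, 0.17 and 0.25 in ovariectomized ones. The part of this trend in the dexamethasone counts of lists above, and in the counts below, was not tested. In the test of the difference, 1251 genes had a higher effect under vehicle (9.65%) and 1983 a lower one (15.3%). These 3234 included 828 of the 1608 genes that rose under vehicle and 1359 of the 2010 that fell. Of 633 genes that passed under both treatments, which are 17.5% of those under vehicle and 38.1% of those under dexamethasone, 195 had the same sign and 438 opposite signs. The opposite pairs were mostly genes that fell under vehicle and rose under dexamethasone, 370 against 68. Across all genes tested rho between the effects was -0.1, as a description.

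The rise of immediate early genes differed between treatments. Of the 40 measured members 0 rose and 1 fell under dexamethasone, beside 7.74% and 5.08% of all genes tested. In the test of the difference 23 members passed, all 23 higher under vehicle, beside 9.65% of all genes tested. The list was chosen with earlier results of these data known. Nr4a1 was between 6.42 and 6.64 in all 6 dexamethasone libraries, and its difference between treatments was 4.69 ± 0.39 (limma adjusted p = 0.000148). For Ppp1r3g the difference was 3.12 ± 0.42 and for Nr4a2 2.39 ± 0.31 (limma adjusted p = 0.000813 and 0.000644). Atf3 was less even: intact dexamethasone library 3, at 7.49, reached the vehicle range of ovariectomized liver, and the difference was 1.98 ± 0.44 (limma adjusted p = 0.00841).

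Several genes that fell under vehicle rose under dexamethasone. Abhd2 rose by 0.6 from an intact dexamethasone level of 8.87, 8.64 and 9.3, below every vehicle library of intact liver, to 9.59, 9.25 and 9.77, and differed between treatments by -2.02 ± 0.23 (limma adjusted p = 0.000371). Mia2 rose by 0.76, Nrip1 by 0.84, Gpam by 0.66, Ugt1a1 by 0.69 and Il6ra by 0.63. The differences between treatments were -2.06, -1.66, -1.62, -1.46 and -1.8. For these rises under dexamethasone the limma adjusted p was 0.00778, 0.00305, 0.0442, 0.00288 and 0.0237, and 0.0366 for Abhd2. Whether each rise holds with a dexamethasone library left out was not examined. For Mia2, Nrip1, Gpam and Ugt1a1 every intact dexamethasone library lay below every ovariectomized vehicle library. For Abhd2, Mia2, Gpam and Ugt1a1 the 3 intact vehicle libraries were the highest of all 12. Esr1 had a dexamethasone difference of 0.27 ± 0.35 that did not pass, with the second library of each dexamethasone group at 8.01 and 7.88, and the difference between treatments was -1.66 ± 0.49 (limma adjusted p = 0.0301). Igf2bp3 fell under both, by 1.76 and 1.29, with a smaller difference of -0.47 ± 0.12 (limma adjusted p = 0.0189).

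**Figure D5:**
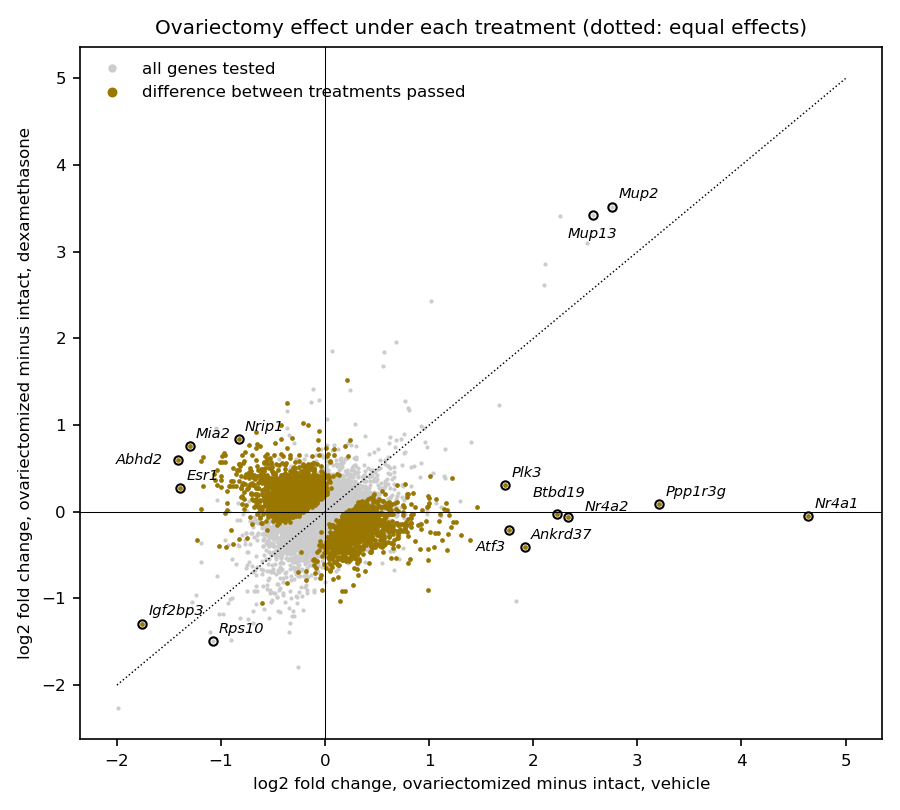
Log2 difference between ovariectomized and intact liver under vehicle (x axis) and under dexamethasone (y axis) for the 12965 genes tested. Dark points are the 3234 genes whose difference between treatments passed, and the dotted line marks equal effects. Nr4a1 and Ppp1r3g lie along the x axis. Mup2 and Igf2bp3 have the same sign under both treatments, while Abhd2, Mia2 and Nrip1 have opposite signs.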

How the data were processed

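Liver RNA was sequenced in 12 samples, in 4 groups of 3 taken from the labels. The authors deposited 1 table of log2 normalized expression per gene. The submitters' processing notes name Trim Galore, TopHat2, HTSeq, DESeq and DESeq2 and the mm9 build, without roles or versions. The exact transformation is not given in the sources used here, and its spread is small at low levels (median SD 0.0251 at a mean of 1 or less), so fold changes of low genes may be understated. Of 24962 entries, 6294 were 0 in every library. Of 392 symbols with several entries the one with the highest mean was kept, and genes with a mean of at least 4 were tested.

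The deposited log2 values were fitted with limma 3.58.1 in R 4.3.3 (4 group means over 12 libraries, 8 residual degrees of freedom, variance trend), with Benjamini-Hochberg adjustment over the 12965 genes tested and a threshold of 0.05. The procedure was tested on simulated data. The members and lists were chosen with earlier results of these data known. Genes named were the 12 largest rises and 12 largest falls without overlap between groups, up to 4 members that passed from each list with at least 2, and Esr1, Nr3c1, Fkbp5, Per1 and Tsc22d3. Of the 126 such genes that passed, 45 lost the call in at least 1 alternative. These are given as counts only, except Prtn3 and Per1, a choice made after their values were seen. Genes named without an error, such as Jun, Sik1, Ppargc1a, Pck1 and Gsta4, and S100a9 and Pnliprp1, were also chosen then. A few of the genes chosen this way are not reported here. Length, GC content and shared 50-base words came from GENCODE M21 (GRCm38), with a length for 99.5% of genes. The length and GC trend was removed per library by natural splines with 4 degrees of freedom. Promoters came from RefSeq, with a window for 100 of the 128 genes the rule takes.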

Additional observations from a re-analysis of the deposited data

Results flagged for a closer look

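The effect of ovariectomy differed between vehicle and dexamethasone in 3234 genes by the test of the difference itself, in limma over all 12 libraries. Among the genes described above that the rule for named genes takes, 57 did so, 25 with a higher and 32 with a lower effect under vehicle. Each value below is the vehicle effect minus the dexamethasone effect, in log2 units. The difference was positive for Nr4a1 (4.69), Ppp1r3g (3.12), Nr4a2 (2.39), Btbd19 (2.26), Ankrd37 (2.33), Atf3 (1.98), Plk3 (1.42), Fos (1.58) and G6pc (0.92). It was positive also for Socs3 (0.97), Irs1 (0.58), Gstm1 (0.62), Il1b (1.35), Il1a (0.99), Ppp1r15a (0.89), Atf4 (0.61), Ddit3 (0.74) and Ndufa3 (0.56). A positive difference was also found for Cox6b1 (0.28), Uqcrq (0.54), H2afj (0.56), Egfl7 (0.87), Des (0.5), Spp1 (0.7) and Epcam (0.51). The difference was negative for Igf2bp3 (-0.47), Abhd2 (-2.02), Esr1 (-1.66), Mia2 (-2.06), Slfn9 (-0.91), Rnf125 (-1.78), Urad (-1.22), Rassf8 (-1.47) and Il6ra (-1.8). It was negative also for Nrip1 (-1.66), Nr3c1 (-0.54), Abcd2 (-0.39), Foxo3 (-0.86), Pcx (-0.7), Gpam (-1.62), Cpt1a (-0.65) and Nr5a2 (-0.73). A negative difference was found as well for Akr1d1 (-0.66), Ugt1a1 (-1.46), Cps1 (-1.04), Dpyd (-0.75), Masp1 (-1.51), Fga (-0.87), F5 (-0.77), C3 (-0.82) and Ern1 (-1.13). Genes with a negative difference also included Lrp1 (-0.89), Lyst (-0.77), Vps13c (-0.75), Dst (-0.93), Emr1 (-0.51) and Fkbp5 (-1.01). All of these lower genes but Fkbp5 fell under vehicle, and Fkbp5 passed under neither treatment alone. With any 1 library left out, 2174 to 3520 genes differed.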

How the results depend on the processing

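With library weights 5919 genes passed under vehicle (2675 higher, 3244 lower), 5777 under dexamethasone and 6659 in the difference between treatments. With a minimum absolute log2 difference of 1 the counts were 66 (43 higher, 23 lower), 40 and 165. With the length and GC trend removed 1316 genes were lower under vehicle. Quantile normalization left 768 and removal of the level trend 799 genes under dexamethasone. With 1 library left out, the counts ran from 2215 to 3989 under vehicle (949 to 1788 higher, 1266 to 2201 lower), from 207 to 1852 under dexamethasone and from 2174 to 3520 for the difference. The length trend was -0.22 with the median transcript length and -0.26 in short and in long protein-coding genes alone, and -0.41 to -0.33 with a vehicle library left out. Leaving out dexamethasone libraries, and recentring after the length and GC removal, were chosen after seeing the data.

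Replicate numbers of the labels did not pair the vehicle libraries: the deviations of same-numbered intact and ovariectomized ones correlated at 0.05, -0.04 and -0.01. Under dexamethasone same-numbered libraries correlated at -0.05, 0.4 and -0.17. Differently numbered dexamethasone pairs ran from -0.47 to 0.42, so some of these libraries shared structure across groups. With the replicate number as a block 3450 genes passed under vehicle (1532 higher, 1918 lower), 1533 under dexamethasone and 3118 in the difference. Of the 126 named genes that passed, 81 did so in every alternative run on them, and none reversed. These were 19 to 21 alternatives a gene, and did not include the minimum difference of 1 or leaving out dexamethasone libraries. Of the 45 others, 13 lost the call only with a library left out, and 28 lost it with a length trend removed. Depth is unknown, so counting error cannot be given.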

Other observations

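H19, an imprinted long non-coding RNA that is abundant in fetal liver, had the largest negative difference of any gene tested under vehicle, and narrowly missed the threshold. It was at 7.9, 8.59 and 8.48 in intact and 6.41, 5.93 and 6.68 in ovariectomized vehicle liver, a difference of -1.99 ± 0.69 (limma adjusted p = 0.0503). The groups did not overlap, but the spread shared with the dexamethasone libraries was wide, since intact dexamethasone library 3 stood at 10.05 and library 2 at 6.12.

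Gapdh, a glycolytic enzyme often used as a reference gene, rose under vehicle. It was at 8.69, 8.69 and 8.73 in intact and 9.72, 9.85 and 10.19 in ovariectomized liver, a difference of 1.22 ± 0.12 (limma adjusted p = 0.000135), and 24.7% of its 50-base words are shared with other transcripts. In the 6 dexamethasone libraries it lay between 9.37 and 10.09, so the intact vehicle libraries were the low ones. Efna1, a membrane-bound ephrin ligand, was at 10.19, 10.6 and 10.34 against 12.06, 10.94 and 12.51, a rise of 1.46 ± 0.29 (limma adjusted p = 0.00396), and lay between 10.27 and 10.53 in all 6 dexamethasone libraries. H19, Gapdh and Efna1 were chosen after their values were seen.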
